A study of Mus musculus with 9 samples.

Results

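Expression of 10 liver genes of sulfur amino acid and taurine metabolism was followed across a diet and a drug treatment in mice. They were taken by name from the count table: Csad and Cdo1, which make taurine from cysteine, the taurine carrier Slc6a6, the transsulfuration enzymes Cbs and Cth, and Mat1a, Gnmt, Pemt, Ahcy and Bhmt of the methionine cycle. All 10 were found among 45513 gene IDs, and all 10 passed the filter on low counts that left 12102 genes tested. The list was selected on gene names and function with earlier results of these same counts known, including the group differences reported for Csad below, so those differences are among the values it was chosen by. The values and adjusted p-values of its members therefore describe these libraries and are not independent tests, and the list has no threshold with members just inside or outside it.

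The study measured RNA in the liver of C57BL/6 mice, a common inbred strain, with 3 libraries in each of 3 groups. The first group had a normal diet and vehicle, the second a high fat diet and vehicle, and the third a high fat diet and B-LGND2, a code-named compound. The series title describes it as a ligand of estrogen receptor beta, and the treatment lasted 9 weeks in all groups. Dose, composition of the diets, sex and age are not stated in the labels used, and no group analysed here had B-LGND2 on the normal diet. Poly(A) RNA was sequenced on an Ion Torrent Proton instrument, and the deposited table holds raw read counts per gene.

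As background, the liver converts methionine to S-adenosylmethionine, the donor of methyl groups, and the homocysteine that remains is either methylated back to methionine or passed on to cysteine by transsulfuration. Cysteine is then used for protein and glutathione or oxidised to taurine, which the mouse liver joins to bile acids. Hepatocytes express these enzymes strongly, and many of them respond to diet.

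Library totals ran from 5778978 to 10322972 counts, and a level is given as counts per 1e6 counts (CPM) after scaling of library sizes. Summed over 9 matched hepatocyte markers, the libraries held 74377 to 85256 CPM on the normal diet, 72133 to 78289 CPM on high fat with vehicle and 73296 to 114073 CPM with B-LGND2. Most of this sum was Alb and Apoa1, which went opposite ways with B-LGND2 against vehicle. Alb stood at 46020, 49144 and 44621 CPM with vehicle and 32887, 31560 and 37985 CPM with B-LGND2 (log2 difference -0.45, edgeR adjusted p = 0.244). Apoa1 rose by 1.40 (edgeR adjusted p = 0.0283) and reached 57864 CPM in B-LGND2 library 1. Summed over 12 macrophage markers the libraries held 352 to 599, 329 to 442 and 1168 to 1500 CPM in the same order of groups. With B-LGND2 against vehicle 10 of the 12 genes passed as higher (adjusted p under 0.05), as did 3.07% of all genes tested. The median log2 fold change of the 12 was 1.65. The sums of 7 endothelial markers (132 to 181, 118 to 159 and 202 to 224 CPM) and of 5 cholangiocyte markers (35.5 to 45.4, 29.9 to 35.5 and 52.1 to 65.1 CPM) were also highest in the B-LGND2 group. There 1 gene of each list passed as higher against vehicle, with median log2 fold changes of 0.72 and 0.54 over the genes tested. Most of the cholangiocyte sum was Spp1 (29.2 to 35.2, 22.5 to 25.5 and 41.1 to 55.5 CPM), the gene of that list that passed. Krt19 and Sox9 did not pass, and Krt7 and Epcam were not tested. Of 4 kidney markers Kap and Slc12a1 were at 0 throughout, and Slc34a1 and Umod had 1 count in 1 library each. Of 5 pancreas markers Prss2, Pnlip and Amy2a5 were at 0, Ctrb1 had at most 3 counts, and Cela1 had 127 to 400 counts in every library. Ribosomal RNA took 3.16 to 3.74% of the counts on the normal diet, 0.901 to 1.44% on high fat with vehicle and 4.31 to 6.19% with B-LGND2. Mitochondrial transcripts took 12.7% of normal diet library 1 and 3.69 to 6.12% of the other 8 libraries. Over all protein-coding genes tested, the rank correlation of a gene's deviation from its mean log2 level with its transcript length was 0.323 to 0.361 in the high fat vehicle libraries and -0.517 to 0.188 in the other 6. With GC content of the transcript it was -0.263 to -0.163 on the normal diet, -0.0991 to -0.0183 on high fat with vehicle and 0.0465 to 0.522 with B-LGND2. The ranges of the 3 groups were thus separate for GC content. Fits with offsets for transcript length and GC content are among the alternatives given below. Beyond them, the part of these differences in the results on the 10 genes was not tested. In bulk liver, fewer cells of a type and less RNA per cell cannot be told apart.

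Csad, cysteine sulfinic acid decarboxylase, makes hypotaurine, the precursor of taurine, and had the largest difference of the members between the diets and between B-LGND2 and vehicle. It fell on the high fat diet and was higher again in the B-LGND2 group. The gene lies on the minus strand of chromosome 15. Both RefSeq windows of 250 bases before its annotated starts are printed because its level moved most among the members (GRCm38.p6, read 5′ to 3′ on the minus strand). The first is chr15:102205053-102205302, which lies outside the GENCODE gene span and does not adjoin its end at 102204724. The second is chr15:102189044-102189293, all of which lies inside that span.
Csad upstream of the first start: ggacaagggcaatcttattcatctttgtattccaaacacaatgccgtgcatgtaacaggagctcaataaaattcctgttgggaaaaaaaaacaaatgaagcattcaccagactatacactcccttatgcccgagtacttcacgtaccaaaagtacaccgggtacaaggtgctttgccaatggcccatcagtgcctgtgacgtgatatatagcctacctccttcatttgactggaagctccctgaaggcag
Csad upstream of the second start: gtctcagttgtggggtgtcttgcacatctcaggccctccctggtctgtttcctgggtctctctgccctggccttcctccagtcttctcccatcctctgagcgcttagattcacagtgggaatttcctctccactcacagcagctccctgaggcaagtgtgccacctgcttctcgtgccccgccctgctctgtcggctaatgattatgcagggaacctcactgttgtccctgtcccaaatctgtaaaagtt
No base is in capitals because none of 7 motifs searched on both strands was found in either window. These were AGGTCA (the nuclear receptor core hexamer), TCAAGGTCA (that hexamer with the extension read by LRH-1 and estrogen-related receptors), the full palindromes of the estrogen and the glucocorticoid response element, CACGTG (E-box), TGATGNAA (ATF4-type element) and TGACNNNGC (core of the antioxidant response element), and TCAAGGTCA always contains AGGTCA. Of 32817 mouse windows of the same length, 14% held AGGTCA, 0.387% TCAAGGTCA, 0.064% the estrogen and 0.0305% the glucocorticoid response element, 6.02% CACGTG, 3.45% TGATGNAA and 10.2% TGACNNNGC. An absent match says only that these letters are not in these windows.

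Csad (ENSMUSG00000023044, GRCm38 chr15:102176999-102204724) stood at 131, 151 and 137 CPM in the 3 normal diet libraries. With vehicle on the high fat diet it stood at 24.7, 41.0 and 36.2 CPM, and with B-LGND2 on the same diet at 109.6, 70.3 and 115 CPM. The ranges of the 3 groups were separate: the normal diet was highest, B-LGND2 intermediate and high fat with vehicle lowest. The means were 140.1 ± 10.3, 33.9 ± 8.37 and 98.5 ± 24.6 CPM (SD, n = 3 each), from 150 to 996 counts per library.

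Between the diets Csad fell by 2.04 on the log2 scale (SE 0.25), which is 4.13-fold lower, with an adjusted p of 5.32e-04 (quasi-likelihood test of edgeR, Benjamini-Hochberg over all genes tested). Among the 180 genes that passed as lower on the high fat diet, it ranked 7 by p and 23 by size. With B-LGND2 against vehicle it rose by 1.54 (SE 0.25, adjusted p = 0.00386), which is 2.90-fold higher. It ranked 22 by p and 143 by size among 371 genes that passed as higher. Against the normal diet, the B-LGND2 libraries held 70.3% of the mean level, a log2 difference of -0.51 (SE 0.24) that did not pass (adjusted p = 0.258). The 278 exonic bases that Csad shares with Zfp740 on the opposite strand could carry reads of either gene, since no source used here gives the strand setting of the counting. Zfp740 passed in no comparison, with log2 differences of 0.34, -0.25 and 0.094 in the same order.

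**Figure D1:**
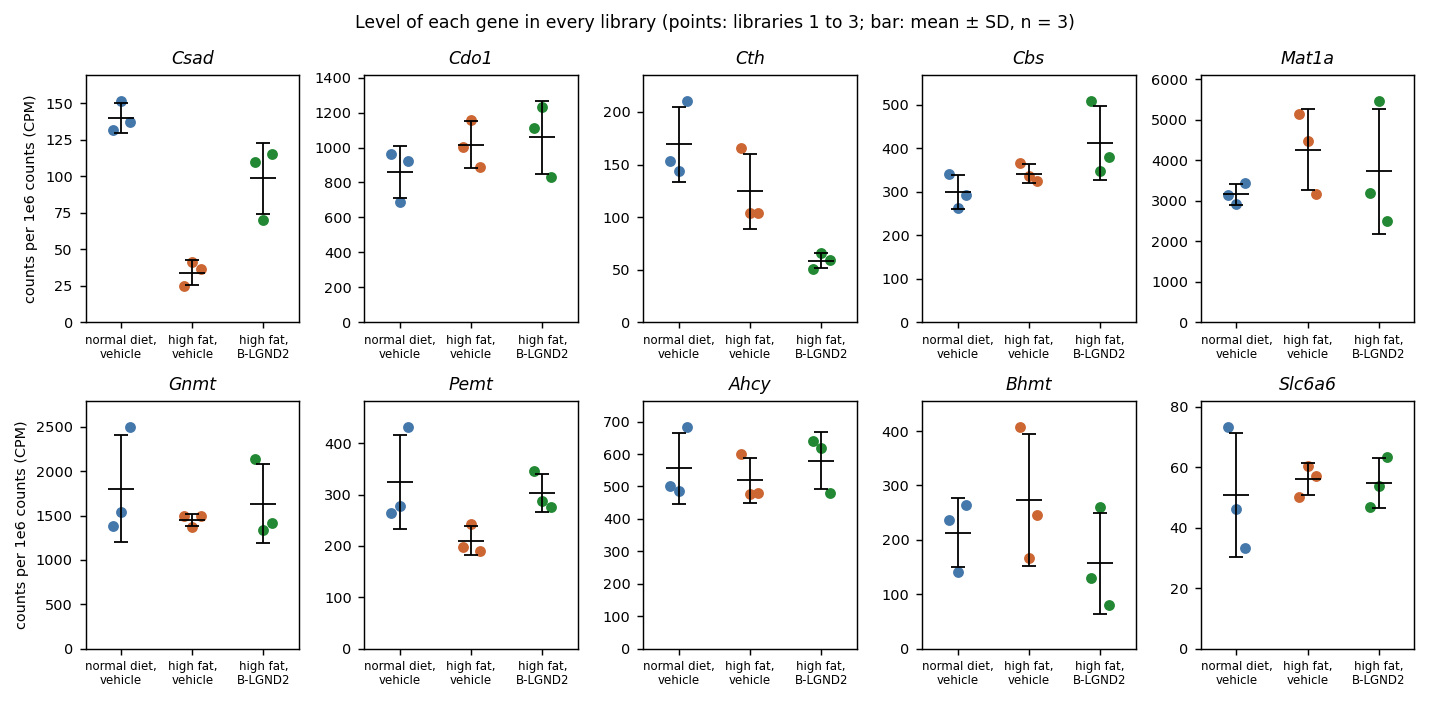
Level of each of the 10 genes in counts per 1e6 counts (CPM, linear axis from 0) in the 9 libraries, with the mean and SD of each group of 3. Csad is lowest in the 3 high fat vehicle libraries (24.7 to 41.0 CPM), and Cth is lowest in the 3 B-LGND2 libraries (50.8 to 65.6 CPM).

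Cdo1, cysteine dioxygenase, catalyses the step before Csad and passed in no comparison. Its libraries (ENSMUSG00000033022, chr18:46713193-46728395, minus strand) held 965, 687 and 924 CPM on the normal diet, 1004, 1155 and 887 CPM on high fat with vehicle, and 1114, 1232 and 828 CPM with B-LGND2. The groups overlapped in every pairing, with log2 differences of 0.24 (SE 0.23) for the diet, 0.060 (SE 0.23) for B-LGND2 against vehicle and 0.30 (SE 0.23) for B-LGND2 against the normal diet. Their adjusted p-values were 0.559, 0.896 and 0.496.

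Taking both enzymes within each library removes any scaling between libraries. Per kilobase of its longest transcript, Csad stood at 0.0952, 0.154 and 0.104 of Cdo1 on the normal diet, 0.0172, 0.0248 and 0.0285 on high fat with vehicle, and 0.0689, 0.0399 and 0.0976 with B-LGND2. This ratio was lowest in the 3 high fat vehicle libraries, and the ranges of the other groups overlapped.

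Slc6a6, the sodium-dependent carrier that brings taurine into cells, had the lowest level per kilobase of transcript, averaged over the 9 libraries, but in CPM stood above Csad in the high fat vehicle group. It stood (ENSMUSG00000030096, chr6:91684053-91759066, plus strand) at 73.1, 46.0 and 33.1 CPM on the normal diet, 50.2, 60.5 and 57.2 CPM on high fat with vehicle, and 46.9, 53.9 and 63.5 CPM with B-LGND2. The normal diet libraries spanned the values of both other groups, so no difference between groups was larger than the spread. The log2 differences were 0.14 (SE 0.26), -0.033 (SE 0.26) and 0.11 (SE 0.26), with adjusted p-values of 0.787, 0.954 and 0.861.

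Cbs, cystathionine beta-synthase, joins homocysteine to serine and opens transsulfuration, and Cth, cystathionine gamma-lyase, releases cysteine from the product. Cth fell in the B-LGND2 group, and Cbs passed in no comparison. Cth (ENSMUSG00000028179, chr3:157894248-157925077, minus strand) stood at 153, 144 and 210.3 CPM on the normal diet, 166, 104 and 104 CPM on high fat with vehicle, and 50.8, 65.6 and 59.7 CPM with B-LGND2. All B-LGND2 libraries lay below all 6 vehicle libraries, and the vehicle groups overlapped each other. The means were 169 ± 36.0, 124 ± 35.8 and 58.7 ± 7.44 CPM (SD, n = 3 each).

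With B-LGND2 against vehicle Cth fell by 1.08 on the log2 scale (SE 0.24), which is 2.12-fold lower (edgeR adjusted p = 0.0203). It ranked 99 by p and 203 by size among 310 genes that passed as lower. Against the normal diet it fell by 1.53 (SE 0.25), which is 2.88-fold lower (adjusted p = 0.00362), and ranked 18 by p and 41 by size among 161. Between the diets the log2 difference was -0.44 (SE 0.24), which did not pass (adjusted p = 0.285) and stood at -0.11 with length and GC offsets. The fall against vehicle missed the threshold when high fat vehicle library 1 (-0.82, adjusted p = 0.116) or 2 (-1.20, adjusted p = 0.0527) or B-LGND2 library 1 (-0.96, adjusted p = 0.104) or 3 (-1.10, adjusted p = 0.0512) was left out. The fall against the normal diet passed in all 21 alternative fits.

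Cbs (ENSMUSG00000024039, chr17:31608894-31637238, minus strand) stood at 340.3, 262 and 294 CPM on the normal diet, 365, 336 and 324 CPM on high fat with vehicle, and 509, 348 and 381 CPM with B-LGND2. The B-LGND2 libraries all lay above the normal diet libraries, while the high fat vehicle group overlapped both. The log2 differences were 0.19 (SE 0.21, adjusted p = 0.616) for the diet, 0.27 (SE 0.21, adjusted p = 0.451) for B-LGND2 against vehicle and 0.47 (SE 0.21, adjusted p = 0.235) against the normal diet. Per kilobase and within each library, Cbs stood at 0.647, 0.532 and 0.407 of Cth on the normal diet, 0.643, 0.944 and 0.911 on high fat with vehicle, and 2.92, 1.55 and 1.86 with B-LGND2. Per kilobase of the longest transcript, Cbs thus exceeded Cth in the 3 B-LGND2 libraries and in none of the other 6. Which libraries cross depends on the length used. Per kilobase of total exon length, the mean over 9 libraries was 46.9 CPM for Cbs and 42.1 CPM for Cth. The order of the libraries by this ratio does not depend on the length.

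Mat1a, the liver's methionine adenosyltransferase, makes S-adenosylmethionine, and Gnmt, glycine N-methyltransferase, disposes of its excess. Neither passed in any comparison. Mat1a (ENSMUSG00000037798, chr14:41105035-41124412, plus strand) stood at 3138, 2919 and 3431 CPM on the normal diet, 5147, 4484 and 3165 CPM on high fat with vehicle, and 3205, 5465 and 2505 CPM with B-LGND2. Its spread was widest with B-LGND2, where the library highest in Mat1a was also highest in Cdo1 and Bhmt. The log2 differences of Mat1a were 0.43 (SE 0.28, adjusted p = 0.381), -0.20 (SE 0.28, adjusted p = 0.710) and 0.24 (SE 0.28, adjusted p = 0.691).

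Gnmt (ENSMUSG00000002769, chr17:46725664-46729168, minus strand) stood at 1380.3, 1538 and 2494 CPM on the normal diet, 1493, 1367 and 1489 CPM on high fat with vehicle, and 2142, 1341 and 1418 CPM with B-LGND2. Library 3 of the normal diet and library 1 with B-LGND2 stood above the rest, and the groups overlapped. Its log2 differences were -0.32 (SE 0.26), 0.17 (SE 0.26) and -0.14 (SE 0.26), with adjusted p-values of 0.497, 0.724 and 0.808.

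Pemt, phosphatidylethanolamine N-methyltransferase, uses S-adenosylmethionine to make phosphatidylcholine. Its libraries (ENSMUSG00000000301, chr11:59970614-60046489, minus strand) held 265, 278 and 431 CPM on the normal diet, 199, 242 and 189.6 CPM on high fat with vehicle, and 345, 287 and 275 CPM with B-LGND2. The high fat vehicle group lay below both other groups without overlap, as for Csad, but the differences did not pass. They were -0.63 (SE 0.23, adjusted p = 0.121) for the diet, 0.53 (SE 0.23, adjusted p = 0.172) for B-LGND2 against vehicle and -0.10 (SE 0.23, adjusted p = 0.847) against the normal diet. The diet difference passed when normal diet library 1 was left out (-0.76, adjusted p = 0.0402), and in no other of the 21 alternative fits. Once offsets for length and GC content of the transcript were fitted, it shrank to -0.17 (adjusted p = 0.621), and the difference between B-LGND2 and vehicle to 0.12 (adjusted p = 0.704).

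Ahcy, adenosylhomocysteinase, splits the product left after methyl transfer into adenosine and homocysteine. It stood (ENSMUSG00000027597, chr2:155059310-155074497, minus strand) at 500.0, 485 and 682 CPM on the normal diet, 599.9, 476 and 479.7 CPM on high fat with vehicle, and 640.0, 618 and 479 CPM with B-LGND2. The 3 groups covered nearly the same range. The log2 differences were -0.10 (SE 0.22), 0.16 (SE 0.22) and 0.059 (SE 0.22), with adjusted p-values of 0.822, 0.696 and 0.912.

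Bhmt, betaine-homocysteine methyltransferase, returns homocysteine to methionine with betaine as the donor, and was the most variable member on the high fat diet. It stood (ENSMUSG00000074768, chr13:93616675-93637961, minus strand) at 236, 141 and 263 CPM on the normal diet, 407, 167 and 246 CPM on high fat with vehicle, and 130.2, 259.7 and 80.4 CPM with B-LGND2. The groups overlapped, and the coefficient of variation reached 44.7% with vehicle and 59.0% with B-LGND2. The log2 differences were 0.36 (SE 0.40, adjusted p = 0.629), -0.80 (SE 0.40, adjusted p = 0.243) and -0.45 (SE 0.40, adjusted p = 0.579). The difference between B-LGND2 and vehicle passed without B-LGND2 library 2 (-1.35, adjusted p = 0.0493) and in the fit with no filter on low counts (-0.81, adjusted p = 0.0241). It missed in the rest of the 21 alternative fits, and with 1 library left out ran from -1.35 to -0.40 (edgeR adjusted p up to 0.624). Bhmt shares 187 exonic bases with the antisense gene Gm15622, which had 4 to 54 counts per library and passed in no comparison.

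The window of 250 bases before the start of Bhmt is printed because it held the most motif matches among the 6 members with a RefSeq promoter sequence (chr13:93637759-93638008, GRCm38.p6, 5′ to 3′ on the minus strand). Capitals mark the matches. The annotations place the start differently: 203 of the 250 bases lie inside the GENCODE span of Bhmt given above, so the window is upstream of the RefSeq start only.
Bhmt upstream of its start: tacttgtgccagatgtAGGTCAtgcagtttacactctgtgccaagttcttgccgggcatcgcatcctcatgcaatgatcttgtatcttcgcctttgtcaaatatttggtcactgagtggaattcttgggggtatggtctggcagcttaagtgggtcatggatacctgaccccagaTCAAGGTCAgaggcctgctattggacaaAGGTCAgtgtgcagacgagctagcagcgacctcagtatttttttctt
AGGTCA occurred 3 times in it, starting 234, 72 and 47 bases before the RefSeq start, and the middle match is part of TCAAGGTCA. Single matches were found in the windows of Ahcy and Gnmt (AGGTCA) and Cbs (CACGTG), and both windows of Pemt held none. Cth, Mat1a, Slc6a6 and Cdo1 have no printed sequence.

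**Figure D2:**
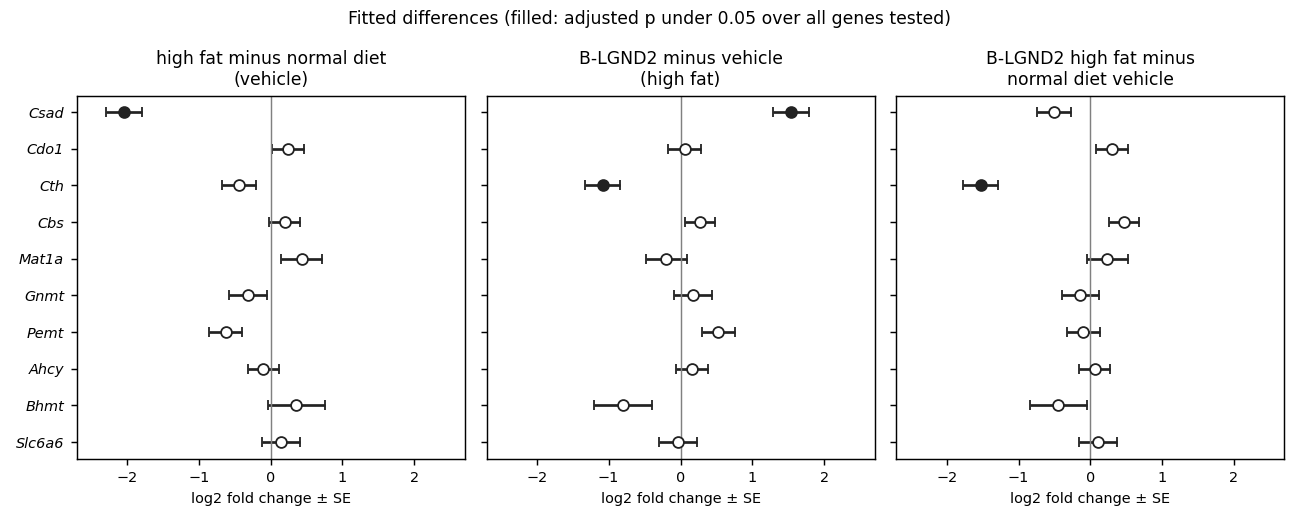
Fitted log2 fold change of each gene with its SE in the 3 comparisons, filled where the adjusted p is under 0.05 over all genes tested. Csad is filled for the diet (-2.04) and for B-LGND2 against vehicle (1.54), Cth for both comparisons of B-LGND2 (-1.08 and -1.53), and no other gene is filled.

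Counted over the list, 1 of 10 members passed between the diets (Csad, lower), where 2.99% of all genes tested passed, 1.5% higher and 1.49% lower. For B-LGND2 against vehicle 2 of 10 passed (Csad higher, Cth lower), where 5.63% of all genes passed, 3.07% higher and 2.56% lower. In the comparison of B-LGND2 with the normal diet 1 of 10 passed (Cth, lower), where 2.93% of all genes passed, 1.59% higher and 1.33% lower. The list was chosen with these contrasts in view, so nothing is read from these shares. Ranges were separate between the groups compared for 2, 3 and 3 members in the same order, against 30.1%, 33.6% and 20.5% of all genes tested. The members' median log2 differences were 0.021, 0.11 and -0.021, beside 0.0055, -0.0036 and -0.0062 over all genes tested. The 3 comparisons share libraries: the high fat vehicle group enters the first and the second, with opposite sign.

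**Figure D3:**
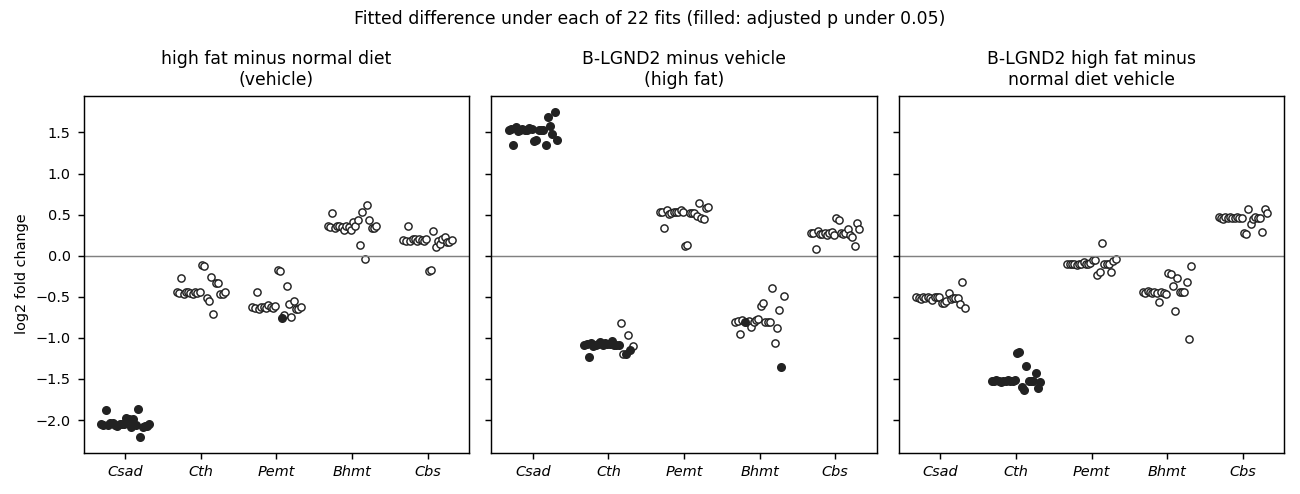
Log2 fold change of 5 members in each of 22 fits: the one reported and 21 alternatives in scaling, filter, test, libraries or correction, filled where the adjusted p is under 0.05. Csad is filled in all fits of its first 2 panels (-2.20 to -1.86 and 1.35 to 1.75), Cth in all fits against the normal diet (-1.63 to -1.17), while Pemt is filled in 1 fit for the diet and Bhmt in 2 for B-LGND2 against vehicle.

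Levels between genes were compared per kilobase of the longest annotated transcript. Averaged over 9 libraries the order was Gnmt (1574 CPM per kilobase), Mat1a (1072), Cdo1 (613), Pemt (278), Ahcy (217), Cth (64.7), Cbs (56.4), Bhmt (54.1), Csad (39.9) and Slc6a6 (8.70). Only the steps from Cdo1 to Pemt and from Ahcy to Cth separated the ranges over all 9 libraries; at every other step the ranges of the neighbours overlapped. Mat1a exceeded Cdo1, and Csad exceeded Slc6a6, in 9 of 9 libraries. With the total exon length in place of the longest transcript, Pemt and Ahcy exchanged places, and so did Cth and Cbs. The 10 genes together took 0.727 ± 0.0587% of the counts on the normal diet, 0.894 ± 0.101% on high fat with vehicle and 0.774 ± 0.181% with B-LGND2 (SD, n = 3 each).

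**Figure D4:**
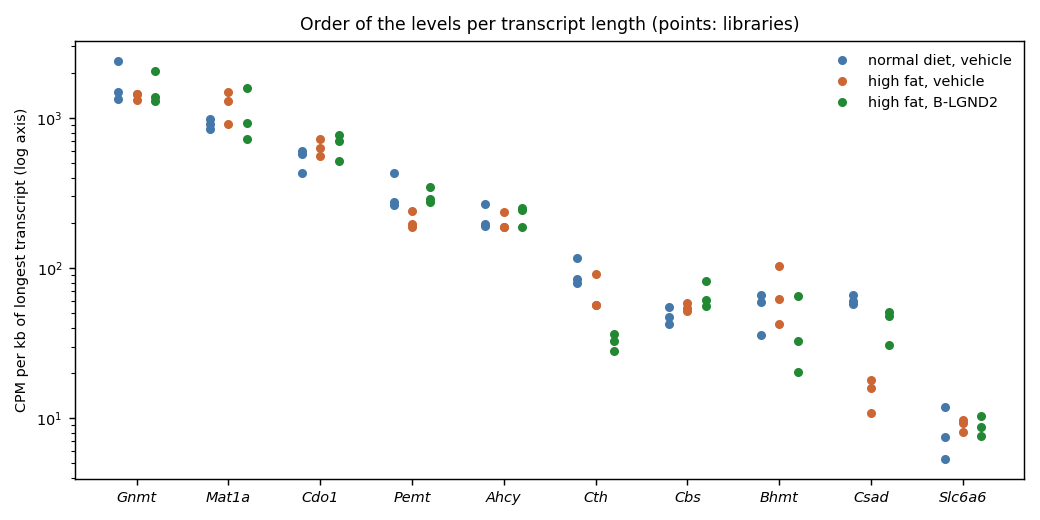
CPM per kilobase of the longest transcript (log axis) in each of the 9 libraries, with the genes ordered by their mean. Gnmt leads (1295 to 2410) and Slc6a6 is last (5.35 to 11.8), and Csad ranges from 10.8 to 66.5.

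The median coefficient of variation within a group was 20.5% on the normal diet, 13.5% on high fat with vehicle and 20.1% with B-LGND2 for the members, beside 25.8%, 14.1% and 24.8% over all genes tested. Csad was the steadiest member on the normal diet (7.37%), Gnmt on high fat with vehicle (4.95%) and Pemt with B-LGND2 (12.4%).

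Genes with the pattern most like Csad and Cth were found by Pearson's r of log2 CPM over the 9 libraries among 11447 other genes, as a description without a test, since the points share libraries and their scaling. Closest to Csad were Fam213a (0.954), the glutathione S-transferase Gstm3 (0.951) and Gm6444 (0.949). Gstm3 had log2 differences of -2.18, 1.27 and -0.91 in the same order of comparisons, which its choice by likeness to Csad largely fixed. Closest to Cth were the sulfotransferase Sult1b1 (0.978), the retinaldehyde dehydrogenase Aldh1a1 (0.970) and the glucuronosyltransferase Ugt2b36 (0.967). The log2 difference of Aldh1a1 was -1.32 for B-LGND2 against vehicle and -1.77 against the normal diet, likewise set by the choice.

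Around the 10 genes, 9 lists of neighbouring pathways held 113 genes in the table, of which 99 were tested. Between the diets 3 passed as higher and 1 as lower, and the median log2 difference of the 99 was -0.068. With B-LGND2 against vehicle 1 passed as higher and 6 as lower (median of the 99 -0.11). Against the normal diet 1 passed as higher and 3 as lower (median of the 99 -0.15). These are 4.04%, 7.07% and 4.04% of the 99, beside the shares of all genes given above. Over all genes tested the medians were 0.0055, -0.0036 and -0.0062. Left-out libraries moved these counts: the 4 diet calls became 13 without normal diet library 1 and 0 without high fat vehicle library 1. The 7 calls with B-LGND2 against vehicle became 0 without high fat vehicle library 1 or 2 and 18 without normal diet library 3, and the 4 against the normal diet became 8 without normal diet library 1 and 0 without library 2.

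On the high fat diet with vehicle, Chdh, choline dehydrogenase on the route from choline to betaine, rose by 0.94 (SE 0.24, adjusted p = 0.0419). It went from 203, 204 and 113 CPM to 289, 344 and 362 CPM. Oplah, which returns glutamate from oxoproline in glutathione turnover, rose by 1.00 (SE 0.22, adjusted p = 0.0289). Tat, tyrosine aminotransferase, rose by 1.44 (SE 0.26, adjusted p = 0.0134), and the serine dehydratase-like gene Sdsl fell by 1.29 (SE 0.33, adjusted p = 0.0459). The ranges of both diets were separate for each of these 4 genes, as for 30.1% of all genes tested. Their choice by a small p in this comparison largely fixed that. Of the 21 alternative fits Tat passed in 20 and missed without high fat vehicle library 1 (1.23, adjusted p = 0.0725). Oplah passed in 13, Sdsl in 10 and Chdh in 9, and all of these 3 missed without normal diet library 2 or 3 or any high fat vehicle library (adjusted p up to 0.127, 0.214 and 0.157). These 3 also missed in the fit on the 2 groups alone and with length and GC offsets, which moved Oplah to 0.64 (adjusted p = 0.0637), Sdsl to -1.07 (adjusted p = 0.0805) and Chdh to 0.56 (adjusted p = 0.0923).

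With B-LGND2 against vehicle, the folate enzyme Mthfd1 fell by 1.25 (SE 0.25, adjusted p = 0.0132), from 78.3, 89.9 and 61.5 CPM to 26.9, 41.4 and 28.6 CPM. Papss2, which makes the sulfate donor of sulfation, fell by 0.98 (SE 0.23, adjusted p = 0.0262), and Chac1, which degrades glutathione, fell by 1.43 (SE 0.34, adjusted p = 0.0246). In branched-chain amino acid breakdown, Mccc1 fell by 0.94 (SE 0.23, adjusted p = 0.0262) and Bckdhb by 0.96 (SE 0.25, adjusted p = 0.0368). Of the CDP-choline route, which makes phosphatidylcholine without Pemt, choline kinase Chka rose by 1.16 (SE 0.26, adjusted p = 0.0206), while cholinephosphotransferase Chpt1 fell by 0.98 (SE 0.21, adjusted p = 0.0188). Of 21 alternative fits, Mthfd1 passed in 18, Chka in 17, Chac1 and Papss2 in 16, Chpt1 and Bckdhb in 15 and Mccc1 in 13. Each missed without high fat vehicle library 1 or 2, with adjusted p-values up to 0.153, and length and GC offsets moved Chpt1 to -0.66 (adjusted p = 0.0619) and Mccc1 to -0.64 (adjusted p = 0.0718).

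Compared with the normal diet, Chka rose by 1.28 (SE 0.26, adjusted p = 0.0173) and Chpt1 fell by 0.94 (SE 0.21, adjusted p = 0.0260). Gclc, the catalytic subunit of glutamate-cysteine ligase, which draws on the cysteine that Cth supplies, fell by 0.94 (SE 0.21, adjusted p = 0.0270). Its libraries held 187, 151 and 120 CPM on the normal diet, 145, 133 and 122 CPM on high fat with vehicle, and 78.9, 83.4 and 77.1 CPM with B-LGND2, so the B-LGND2 group lay below both others. The Gclc difference against vehicle was -0.74 (SE 0.21) and did not pass (adjusted p = 0.0503). Separate ranges against vehicle were found for 33.6% of all genes tested. Chac2, which also degrades glutathione, fell by 1.44 (SE 0.33, adjusted p = 0.0292). Of the 21 alternative fits Chka passed in 18, Gclc in 15, Chac2 in 14 and Chpt1 in 13, and each missed without normal diet library 2 (adjusted p = 0.0729, 0.0872, 0.0697 and 0.0737). All 4 also missed in the fit on the 2 groups alone, and length and GC offsets moved Chpt1 to -0.47 (adjusted p = 0.240) and Chac2 to -0.90 (adjusted p = 0.0937).

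Of all genes tested, 22.4%, 23.7% and 19.4% had an unadjusted p under 0.05 in the order of comparisons above, 8.01%, 9.28% and 5.45% were called by DESeq2, and 2.72%, 5.19% and 2.74% by limma-voom. Of 6 tested genes that use taurine or are related to its synthesis, edgeR called 0 in every comparison, with 0 at an unadjusted p under 0.05 and 0 by DESeq2 or limma-voom. Of 9 other methionine cycle genes it also called 0, with 3, 0 and 3 at an unadjusted p under 0.05 and 0 by DESeq2 or limma-voom. Of 12 polyamine and methionine salvage genes it called 0, with 2, 1 and 2 at an unadjusted p under 0.05; DESeq2 called 1, 1 and 0, and limma-voom 0. Mat2a, another methionine adenosyltransferase gene, is listed at 0 counts in all 9 libraries and was not tested, and whether this reflects its expression or the counting cannot be told from the table.

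**Figure D5:**
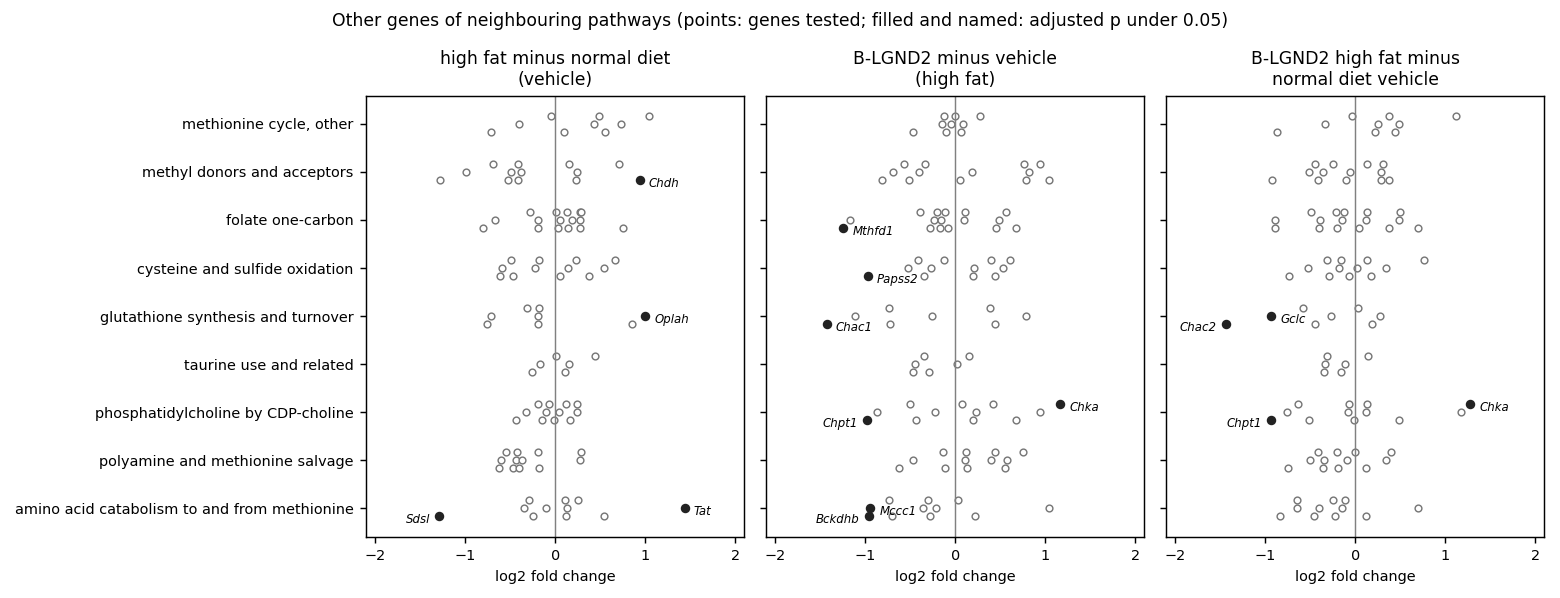
Log2 fold change of the 99 tested genes of 9 neighbouring pathways in the 3 comparisons, filled and named where the adjusted p is under 0.05. Filled points number 4, 7 and 4, with 6 of 7 below 0 for B-LGND2 against vehicle.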

How the data were processed

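The authors deposited 1 table of raw read counts per gene for the 9 libraries, whole numbers without normalization. Per the submitters' processing notes, the genome build was GRCm38.p3 and the tools included HTSeq 0.6.1p1, TopHat2 2.0.13, Bowtie2 2.2.4, DESeq2 1.6.3 and SAMtools 0.1.19. Annotation release and strand setting are not stated there. Libraries were grouped by their labels, which give 3 per group without saying that each came from its own animal, so p-values measure the spread between these libraries. Gene symbols, spans (1-based) and transcript lengths came from GENCODE M21 on GRCm38, and promoter sequences from RefSeq on GRCm38.p6.

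Counts were analysed in R 4.3.3 with edgeR 4.0.16: filterByExpr (minimum count 10) left 12102 genes, which held 99.7% or more of any library's counts, and library sizes were scaled with TMM. A robust quasi-likelihood model of group was fitted to the 9 libraries together (6 residual degrees of freedom), with 3 two-sided contrasts. P-values were adjusted by Benjamini-Hochberg over all genes tested, with a threshold of 0.05. With 3 against 3 libraries a permutation test of 1 gene, even exact, cannot go below 0.1, so none was run. SEs are the fold change over the root of its F value. The procedure was tested on counts simulated from each gene's mean and fitted dispersion. These lacked the length and GC trends of the libraries, so that test does not cover them. Any 2 libraries differed beyond sampling noise (smallest chi-square per degree of freedom 11.8). Alternatives used limma 3.58.1 (voom), DESeq2 1.42.0, other scalings and filters, each library left out, a replicate block, and offsets for transcript length and GC content.

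The 10 genes, the pathway and marker lists and the motifs were chosen with earlier results of these data known. All 10 members were named in every comparison. From each pathway list, up to 3 genes that passed with the smallest p were named per comparison, and for members called at least once the 3 genes closest in log2 CPM (pseudocount 0.5, average log2 CPM of at least 1). Reads carry no molecular identifiers, so counts are not molecules, and at 150 to 996 counts per library counting error for Csad was below the spread between libraries.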

Additional observations from a re-analysis of the deposited data

How the results depend on the processing

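Csad kept its direction and its call in all 21 alternatives, for the diet (log2 fold change -2.20 to -1.86) and for B-LGND2 against vehicle (1.35 to 1.75), and so did Cth against the normal diet (-1.63 to -1.17). With library totals alone as scaling, all genes' median log2 difference moved to 0.17 for the diet and -0.18 for B-LGND2 against vehicle, and the share of calls that were higher to 72.6% from 50.3% and to 31.2% from 54.5%. The same members were called.

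Over the whole table, the calls for the diet numbered 1182 with no filter, 969 by DESeq2, 153 with the 2 groups alone, 203 with a replicate block, 222 with length and GC offsets and 189 with both block and offsets, from 362. For B-LGND2 against vehicle they numbered 1345 with no filter, 1123 by DESeq2 and 1420 with the 2 groups alone, from 681. Against the normal diet they numbered 751, 660 and 144 in the same order, and 223 with block and offsets, from 354. Pathway genes called for the diet numbered 7 by DESeq2 and 1 with the 2 groups alone, with offsets, or with block and offsets, from 4. For B-LGND2 against vehicle they numbered 16 without scaling, 17 with no filter, 18 by DESeq2, 17 with the 2 groups alone and 12 with offsets or with block and offsets, from 7. Against the normal diet they numbered 10 with no filter, 8 by DESeq2, 0 with the 2 groups alone and 2 with offsets or with block and offsets, from 4.

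Replicate numbers showed no clear pairing of the libraries. The correlation of deviations between libraries with the same number ran from -0.27 to 0.21, and 2 of 9 pairs exceeded 0.1. Between libraries with unlike numbers it ran from -0.23 to 0.29, and 5 of 18 pairs exceeded 0.1. So few pairs cannot exclude a pairing. The replicate block called the same members.

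With 1 library left out, calls over the whole table ranged from 35 to 1860 for the diet, 100 to 1439 for B-LGND2 against vehicle and 111 to 639 against the normal diet. For the diet they numbered 1860, 89 and 79 without normal diet library 1, 2 or 3, and 35, 66 and 39 without high fat vehicle library 1, 2 or 3. For B-LGND2 against vehicle they numbered 1212 and 1439 without normal diet library 1 or 3, 123, 100 and 184 without high fat vehicle library 1, 2 or 3, and 134 and 422 without B-LGND2 library 1 or 3. Against the normal diet they numbered 639, 111 and 224 without normal diet library 1, 2 or 3, 234, 228 and 235 without high fat vehicle library 1, 2 or 3, and 130 and 221 without B-LGND2 library 1 or 2. Members called ranged from 1 to 2, 1 to 3 and 1 to 1, and pathway genes called from 0 to 13, 0 to 18 and 0 to 8.

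Differences that did not pass changed sign in places. Without scaling, Ahcy stood at 0.071 for the diet and -0.017 for B-LGND2 against vehicle, where Cdo1 stood at -0.12 and Gnmt at -0.0248. With offsets, and with block and offsets, the diet values were -0.18 and -0.17 for Cbs, 0.12 and 0.12 for Gnmt, and -0.21 and -0.21 for Slc6a6. For B-LGND2 against vehicle they were -0.046 and -0.055 for Cdo1, -0.30 and -0.30 for Gnmt, and 0.12 and 0.11 for Slc6a6, which stood at -0.092 and -0.092 against the normal diet. With 1 library left out, the diet values ran from -0.22 to 0.073 for Ahcy, -0.046 to 0.61 for Bhmt and -0.092 to 0.50 for Slc6a6. For B-LGND2 against vehicle they ran from -0.042 to 0.21 for Cdo1, -0.043 to 0.32 for Gnmt, -0.56 to 0.024 for Mat1a and -0.15 to 0.097 for Slc6a6. Against the normal diet they ran from -0.030 to 0.23 for Ahcy, -0.38 to 0.16 for Gnmt, -0.15 to 0.46 for Mat1a, -0.23 to 0.16 for Pemt and -0.13 to 0.47 for Slc6a6. The cause of these changes was not tested.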
